A study of Mus musculus with 20 samples.

Results

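Bone marrow SP cells, the side population sorted from the bone marrow of adult C57BL/10SnJ mice, were set against every other population of the series. They make up 5 of the 20 samples. The other 15 arrays held 5 samples each of Muscle SP cells, Muscle MP cells and Bone marrow MP cells, taken from skeletal muscle or bone marrow of the same inbred strain. SP cells are those that stain weakly with the DNA-binding dye Hoechst, and MP, or main population, cells are the remainder that keep it. Total RNA of each sample had been hybridised to 1 Affymetrix mouse expression array. No treatment, transgene or genotype separates the groups, and the labels give neither the sex and exact age of the mice nor how many were pooled in a sample. Nor do they state if the 5 samples within each group derive from different animals or different sorts. The p-values below therefore reflect the scatter of these samples alone, and that scatter may be technical.

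Blood stem cells can be enriched from mouse bone marrow as side population cells since ABC transporters in their membrane, above all Abcg2, pump the dye out. Such stem cells are known for a set of transcription factors, among them Meis1, Runx1, Tal1 and Lmo2, and for the cytokine receptor Kit. Lymphocytes of the T and natural killer (NK) lineages, which bone marrow also holds, are recognised by the CD3 chains of the T cell receptor complex and by the killer cell lectin-like receptors.

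Genes were selected by a plain rule on the log2 signal. A probe set, the group of array probes that reads 1 transcript, was taken as above all others when its lowest value on the 5 Bone marrow SP arrays exceeded its highest value on the 15 other arrays, and as below all others in the converse case. Signals are quoted after quantile normalization, which gives every array the same distribution of values, and are never lower than a floor of 105, at the 25th percentile of all values. Of 10310 probe sets tested, 258 lay above all 15 other arrays, which is 2.50%. Another 124 lay below all 15, which is 1.20%. The 258 probe sets included 226 with a single gene symbol, naming 217 genes, and 32 with several symbols or none. The 124 included 118 with a single symbol, naming 108 genes, and 6 others.

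For each probe set, Bone marrow SP was also compared with each other group by limma, a linear model fitted across all probe sets, with p-values adjusted by Benjamini-Hochberg over all of them. At an adjusted p under 0.05, 2186 probe sets were higher and 1767 lower in Bone marrow SP than in Muscle SP, or 21.2% and 17.1% of those tested. Against Muscle MP, 2590 were higher (25.1%) and 2047 lower (19.9%). Against Bone marrow MP, 1583 were higher (15.4%) and 1530 lower (14.8%). Of the 258 probe sets above all others, 239 passed in each of the 3 comparisons, as did 119 of the 124 below all others. The selection and these tests read the same values, so that the adjusted p of a selected gene describes the size of its difference against the spread and adds no independent evidence.

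These shares moved with the scaling of the arrays. Higher calls made up 55.3% of all calls against Muscle SP, 55.9% against Muscle MP and 50.9% against Bone marrow MP. With the arrays left as the authors scaled them, the corresponding shares were 63.9%, 67.0% and 72.2%. When arrays were scaled to a common median instead, they were 48.6%, 48.6% and 32.9%. Quantile normalization placed the median log2 difference of all probe sets at 0.11 against Muscle SP, 0.15 against Muscle MP and 0.02 against Bone marrow MP, and a change of a gene is to be read against these values. Without further normalization the medians were 0.27, 0.34 and 0.31. A sign of RNA quality was examined beside these counts. For GAPDH, the 3' control probe set over the 5' one gave a log2 ratio of 3.72 ± 0.60 on Bone marrow SP arrays, against 3.83 ± 0.61 on Muscle SP, 2.66 ± 0.62 on Muscle MP and 2.67 ± 0.72 on Bone marrow MP arrays (SD, n = 5 each). Its exact two-sided permutation p was 0.810 against Muscle SP and 0.0397 against each of the other groups, or 0.106 after adjustment over 8 such tests. The same ratio for beta-actin was 2.07 ± 0.72 on Bone marrow SP and 0.98 ± 0.28 on Bone marrow MP arrays (SD, n = 5 each, exact permutation p = 0.00794, adjusted 0.0635). A higher ratio is read as RNA shortened from its 5' end. Named genes were refitted with the GAPDH ratio as a covariate, but its part as a cause of the differences described below was not tested.

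The label was first set against defining markers. Among markers of blood stem cells, Kit, the receptor of stem cell factor, and Meis1, a homeobox transcription factor, lay above all 15 other arrays, whereas Abcg2, Procr and Mecom did not. Markers of other blood cells were present. S100a8, a calcium-binding protein of neutrophils, gave a signal of 17300 to 51300 on Bone marrow SP arrays, against 226 to 7090 on Muscle SP, 389 to 1540 on Muscle MP and 75200 to 99000 on Bone marrow MP arrays. Bone marrow SP thus lay below Bone marrow MP and above both muscle groups without overlap. Mpo gave 10800 to 13400 on Bone marrow SP and 10800 to 29600 on Bone marrow MP arrays (limma adjusted p = 0.456, or 0.0169 under median scaling). Its other probe set was lower in Bone marrow SP (-1.08 on the log2 scale, limma adjusted p = 0.000136). Cd48 gave 3180 to 5310 and 3800 to 5390 on these groups (limma adjusted p = 0.756). Elane was lower, at 604 to 1270 against 1400 to 2500 (limma adjusted p = 0.00184). Except for Pecam1, the markers of the vessel wall and of connective tissue named here were lower than on muscle arrays, but not all near the floor. Pecam1, a marker of endothelium, gave 1100 to 1920 on Bone marrow SP and 759 to 2330 on Muscle SP arrays. On Muscle MP arrays it gave 667 to 1420 and on Bone marrow MP arrays 1230 to 1920, so that it overlapped with every group. Cdh5, the endothelial cadherin, gave 105 to 563 on Bone marrow SP arrays and 16500 or more on every muscle array. Kdr, a receptor of vascular endothelial growth factor, gave 412 to 1160 on Bone marrow SP arrays and Vwf, the von Willebrand factor of endothelium and platelets, 500 to 2680. The collagen gene Col1a1 gave 733 to 2390 on Bone marrow SP arrays, against 8970 to 39100 on Muscle SP, 34300 to 61600 on Muscle MP and 1120 to 1770 on Bone marrow MP arrays, overlapping with the last. The part of such cells in the differences below was not tested. Myf5, a myogenic factor, was at the floor on all 5 Bone marrow SP arrays and on all Bone marrow MP arrays. Acta1, a further muscle marker, gave 105 to 228 on Bone marrow SP arrays, 105 to 120 on Bone marrow MP arrays and 636 or more on every muscle array. Ckm, another, gave 113 to 680 on Bone marrow SP arrays and 105 to 502 on muscle arrays, and so overlapped. In such bulk samples a lower share of cells of a type and less RNA per cell cannot be told apart.

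Lymphocyte genes formed the list with the highest share of genes above all others. Of 27 tested genes in a list of T and NK cell markers, 12 lay above all 15 other arrays (44.4%), against 2.85% of all 7295 genes when each was read from 1 probe set, and none lay below. Ifng, the gene of interferon gamma, a cytokine made by NK cells and activated T cells, headed the named genes above all others when ranked by the smallest of the 3 differences, after 2 probe sets without a single gene symbol. Its signal was 5570, 4160, 12200, 11500 and 13600 on Bone marrow SP 1 to 5. It was 471, 1100, 947, 337 and 431 on Muscle SP 1 to 5, at the floor on all Muscle MP arrays, and 115, 365, 212, 141 and 105 on Bone marrow MP 1 to 5. Every Bone marrow SP array thus exceeded the highest other array, Muscle SP 2, by a wide margin, and the groups did not overlap. The log2 difference was 3.85 ± 0.37 (SE) against Muscle SP, or 14.4-fold, and 5.66 ± 0.37 against Bone marrow MP, or 50.6-fold, with limma adjusted p of 1.64e-08 and 2.39e-10. Against Muscle MP, where all 5 arrays were at the floor, it was at least 81.0-fold.

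**Figure D1:**
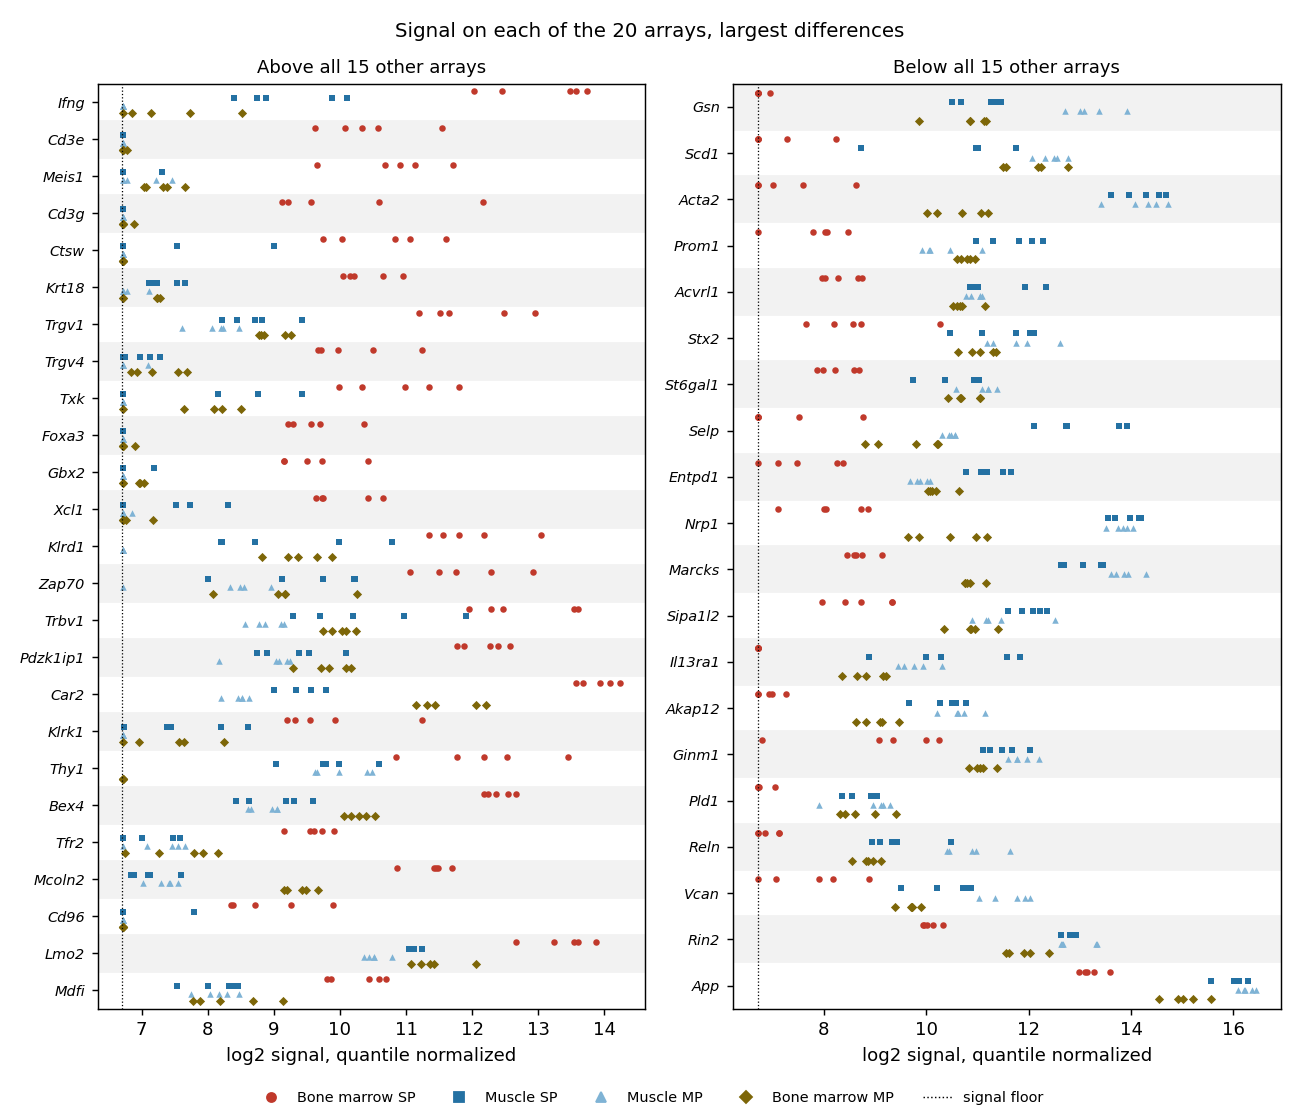
Signal on each of the 20 arrays (x axis, log2 after quantile normalization, dotted line at the floor) for the 25 genes above and the 20 genes below all 15 other arrays with the largest value of the smallest difference, where each point is 1 array and each colour and shape a group. In the left panel the 5 Bone marrow SP points of each gene lie to the right of all others, with Ifng between 4160 and 13600 signal, and in the right panel to the left of all others, with Gsn at or next to the floor.

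All 3 CD3 chains were above all others. These proteins carry the signal of the T cell receptor, and their genes Cd3g, Cd3d and Cd3e are neighbours on chromosome 9. Cd3e gave 1530, 1290, 2990, 787 and 1080 on Bone marrow SP 1 to 5, was at the floor on all 10 muscle arrays, and gave 110 on Bone marrow MP 2 and the floor on the remaining Bone marrow MP arrays. Cd3g gave 592, 1540, 4580, 555 and 752 on Bone marrow SP arrays, was likewise at the floor on all muscle arrays, and reached 118 only on Bone marrow MP 5. Both were close to undetected outside Bone marrow SP, and Bone marrow SP 3 was the highest array for each. Cd3e was at least 13.2-fold and Cd3g at least 10.7-fold higher than in either muscle group. Cd3d gave 1390, 1120, 2700, 1230 and 1260 on Bone marrow SP 1 to 5. Its signal was 126, 202, 476, 105 and 105 on Muscle SP 1 to 5, at the floor on Muscle MP arrays, and 409, 323, 562, 542 and 315 on Bone marrow MP 1 to 5. It was therefore detected on all Bone marrow MP arrays, unlike its neighbours, and was 3.48-fold higher in Bone marrow SP than there (log2 difference 1.80 ± 0.33, limma adjusted p = 0.000210).

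The promoters of these 3 neighbours and of Meis1, the blood stem cell factor of largest difference, are printed as examples of a lymphocyte gene cluster and of a stem cell factor above all others. Each runs from 250 bases before to 50 after the annotated start in RefSeq, assembly GRCm38.p6, in the direction of transcription. Capitals mark matches, on either strand, to the letters GGAAGT for the ETS motif, TGTGGT for the RUNX motif, AGATAA for the GATA motif, CAGCTG for the E-box and TATAAA for the TATA box, and no 2 of these motifs overlap here. The windows are chr9:45009562-45009861 (minus strand) for Cd3e, chr9:44980382-44980681 (minus strand) for Cd3g, chr9:44981536-44981835 (plus strand) for Cd3d and chr11:19018920-19019219 (minus strand) for Meis1.
Cd3e: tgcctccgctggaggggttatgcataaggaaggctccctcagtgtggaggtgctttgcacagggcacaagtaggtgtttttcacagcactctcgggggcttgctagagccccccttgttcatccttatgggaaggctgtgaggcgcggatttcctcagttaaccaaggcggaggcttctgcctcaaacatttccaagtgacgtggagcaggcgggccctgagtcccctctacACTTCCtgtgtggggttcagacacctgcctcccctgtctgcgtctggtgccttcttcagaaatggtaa
Cd3g: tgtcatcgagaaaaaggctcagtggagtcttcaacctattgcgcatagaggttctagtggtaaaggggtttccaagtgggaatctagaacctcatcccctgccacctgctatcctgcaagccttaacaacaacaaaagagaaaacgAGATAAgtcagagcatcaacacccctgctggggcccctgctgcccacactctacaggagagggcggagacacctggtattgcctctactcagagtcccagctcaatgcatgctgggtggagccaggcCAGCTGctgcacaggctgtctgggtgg
Cd3d: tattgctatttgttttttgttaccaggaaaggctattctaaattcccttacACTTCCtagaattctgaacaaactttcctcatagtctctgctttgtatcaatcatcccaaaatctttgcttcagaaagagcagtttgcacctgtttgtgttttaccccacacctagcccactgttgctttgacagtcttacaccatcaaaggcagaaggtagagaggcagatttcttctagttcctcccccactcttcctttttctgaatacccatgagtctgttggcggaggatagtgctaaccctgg
Meis1: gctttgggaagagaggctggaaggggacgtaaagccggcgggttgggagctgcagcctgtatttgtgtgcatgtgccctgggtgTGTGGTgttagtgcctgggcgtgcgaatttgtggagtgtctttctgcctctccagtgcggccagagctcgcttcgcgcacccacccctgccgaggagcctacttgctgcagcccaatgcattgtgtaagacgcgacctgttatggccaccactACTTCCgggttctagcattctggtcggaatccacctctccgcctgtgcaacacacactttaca

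The Cd3e window held the ETS letters, read on the reverse strand, 18 bases before the start, and the Cd3d window held them 199 bases before it. Meis1 held the ETS letters 13 bases and the RUNX letters 166 bases before its start, and Cd3g the GATA letters 104 bases before and the E-box letters 24 bases after its own. Promoters were found for 180 of the 217 genes above and 85 of the 108 genes below all others. The ETS letters stood in 28.9% of the promoters of genes above, 18.8% of those of genes below and 28.5% of 5837 promoters of all tested genes. In the same order, the RUNX letters stood in 27 of 180, 9 of 85 and 745 of 5837 promoters, and the shares were 4.4%, 3.5% and 6.6% for GATA, 11.1%, 23.5% and 14.4% for the E-box, and 14.4%, 7.1% and 9.7% for the TATA box. These shares are descriptions of the letters alone, and no test was made on them.

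The remaining lymphocyte genes above all others covered receptors, signalling and effector proteins. Klrd1 and Klrk1, adjacent on chromosome 6, encode lectin-like receptors of NK cells, CD94 and NKG2D. Klrd1 gave 2610, 3010, 8410, 3560 and 4640 on Bone marrow SP 1 to 5. It gave 299, 1020, 1780, 420 and 294 on Muscle SP 1 to 5, the floor on Muscle MP arrays, and 453, 597, 940, 657 and 807 on Bone marrow MP 1 to 5. The nearest other array was again of Muscle SP, and the difference was 6.96-fold against Muscle SP and 6.05-fold against Bone marrow MP. Klrk1 lay between 585 and 2410 on Bone marrow SP arrays and between 105 and 391 on the others, although its other probe set overlapped between groups.

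Among signalling proteins, Zap70, the kinase recruited by the T cell receptor, gave 2140 to 7740 on Bone marrow SP arrays, against 256 to 1200 on Muscle SP, 105 to 497 on Muscle MP and 270 to 1220 on Bone marrow MP arrays. Of its 3 probe sets, 1 lay above all others. Txk, a kinase of the Tec family active in T cells, was higher by 2.93 ± 0.45 on the log2 scale than in Muscle SP, and both of its probe sets lay above all others. Among effector proteins, Ctsw, the protease cathepsin W of NK and cytotoxic T cells, gave 859 to 3100 on Bone marrow SP arrays and the floor on every Muscle MP and Bone marrow MP array, so that it was at least 15.4-fold higher than in either. Among Muscle SP arrays it gave 186 on Muscle SP 2, 513 on Muscle SP 3 and the floor on the other 3. Xcl1, the chemokine lymphotactin, was at least 6.22-fold higher than in Muscle SP and 9.33-fold higher than in Bone marrow MP, where some arrays were at the floor. Cd28, a co-stimulatory receptor, and Eomes, a transcription factor of NK and memory T cells, completed the 12 genes.

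Further lymphocyte genes outside the list behaved likewise. Probe sets annotated to the T cell receptor segments Trgv1, Trgv4 and Trbv1 lay above all others, with Trgv1 at 2350 to 7870 on Bone marrow SP arrays, against 297 to 691 on Muscle SP, 196 to 356 on Muscle MP and 438 to 611 on Bone marrow MP arrays. Receptor segments are closely related in sequence, so that which segment was read is uncertain. Trbv1 cleared the highest other array, Muscle SP 3, by a log2 gap of only 0.05. Cd96, a receptor of T and NK cells, gave 328 to 955 on Bone marrow SP arrays and 222 on Muscle SP 3, and was at the floor on the remaining arrays. Some effector genes of the same cells overlapped between groups. Gzma, the protease granzyme A, did not differ beyond the spread from Muscle SP (log2 difference -0.11 ± 0.39, limma adjusted p = 0.851). Among further NK cell markers, Ncr1 was on the array but not above the floor on the 5 arrays needed for testing. Klrb1c was not analysed here. Ccl5 was far higher than in Muscle MP, by 7.58 ± 0.62 on the log2 scale, yet its 44000 on Muscle SP 3 exceeded the 34300 on Bone marrow SP 4.

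Summed over the 27 genes, the lymphocyte signal ran from 70000 to 126000 on Bone marrow SP arrays with a median of 81900, and Bone marrow SP 3 was highest. The sum ran from 8540 to 62400 on Muscle SP, from 4160 to 5100 on Muscle MP and from 9160 to 13800 on Bone marrow MP arrays. Muscle SP 3 was the array of highest sum outside Bone marrow SP, and without it 16 of the list's genes lay above all remaining arrays. Over all 7295 genes, limma found 22.4%, 25.4% and 16.5% higher than in Muscle SP, Muscle MP and Bone marrow MP, and 18.9%, 22.1% and 14.9% lower. Of the 27 genes of the list, 20 were higher than in Muscle SP, 23 than in Muscle MP and 22 than in Bone marrow MP, none was lower in any comparison, and the median log2 differences were 1.77, 3.13 and 1.92. The medians over all genes tested were 0.11, 0.13 and 0.03. The part of these cells in other differences of Bone marrow SP was not tested.

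Transcription factors of blood stem and progenitor cells formed the next group. Of 28 tested, 6 lay above all 15 other arrays (21.4%, against 2.85% of all genes) and none below. Meis1, which is required to maintain blood stem cells, gave 809, 1920, 1640, 2240 and 3350 on Bone marrow SP 1 to 5. It was at the floor on Muscle SP arrays except for 158 on Muscle SP 5, and gave 109, 105, 105, 149 and 177 on Muscle MP 1 to 5 and 131, 159, 168, 133 and 201 on Bone marrow MP 1 to 5. The lowest Bone marrow SP array was thus well clear of the highest other array. The differences were at least 15.9-fold against Muscle SP and 14.3-fold against Muscle MP, where some arrays were at the floor. Against Bone marrow MP the difference was 11.5-fold, with a limma adjusted p of 2.84e-09. This probe set carries an s suffix, which marks probes that can bind related transcripts.

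Lmo2 and Tal1 encode partners in a DNA-binding complex of blood stem cells, Lmo2 as the bridging protein and Tal1 as the basic helix-loop-helix factor. Lmo2 gave 11900, 15000, 12500, 6470 and 9660 on Bone marrow SP 1 to 5, against 2120 to 2430 on Muscle SP, 1320 to 1770 on Muscle MP and 2160 to 4280 on Bone marrow MP arrays. Tal1 gave 1320, 2860, 1460, 2790 and 5090 on Bone marrow SP 1 to 5, against 759 to 1230 on Muscle SP, 518 to 941 on Muscle MP and 289 to 453 on Bone marrow MP arrays. The order of the other groups therefore differed between the partners, with Bone marrow MP nearest for Lmo2 and Muscle SP nearest for Tal1. Pdzk1ip1, the gene next to Tal1 on chromosome 4, which encodes a small membrane protein, was also above all others, at 3490 to 6070 on Bone marrow SP arrays and 288 to 1150 on the 15 others. Under median scaling neither Lmo2 nor Tal1 cleared all 15 arrays, and another probe set of Lmo2 overlapped between groups.

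Runx1, a factor needed for the first blood stem cells of the embryo, gave 910 to 1760 on Bone marrow SP arrays, 105 to 259 on muscle arrays and 551 to 749 on Bone marrow MP arrays. It was 7.69-fold higher than in Muscle SP but 1.87-fold higher than in Bone marrow MP (limma adjusted p = 0.0111). Gfi1b, a repressor active in stem cells and in erythroid and megakaryocytic cells, showed the same order, at 7.35-fold and 2.40-fold. Mllt3 was the sixth factor. Gata2, a stem cell factor also active in endothelium, was 3.04-fold higher than in Bone marrow MP but overlapped with both muscle groups, where the differences were 0.37 ± 0.29 and 0.33 ± 0.29 on the log2 scale and did not pass. In limma 12, 14 and 12 of the 28 factors were higher than in Muscle SP, Muscle MP and Bone marrow MP, and 7, 4 and 0 were lower. The shares over all genes were 22.4%, 25.4% and 16.5% higher and 18.9%, 22.1% and 14.9% lower.

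**Figure D2:**
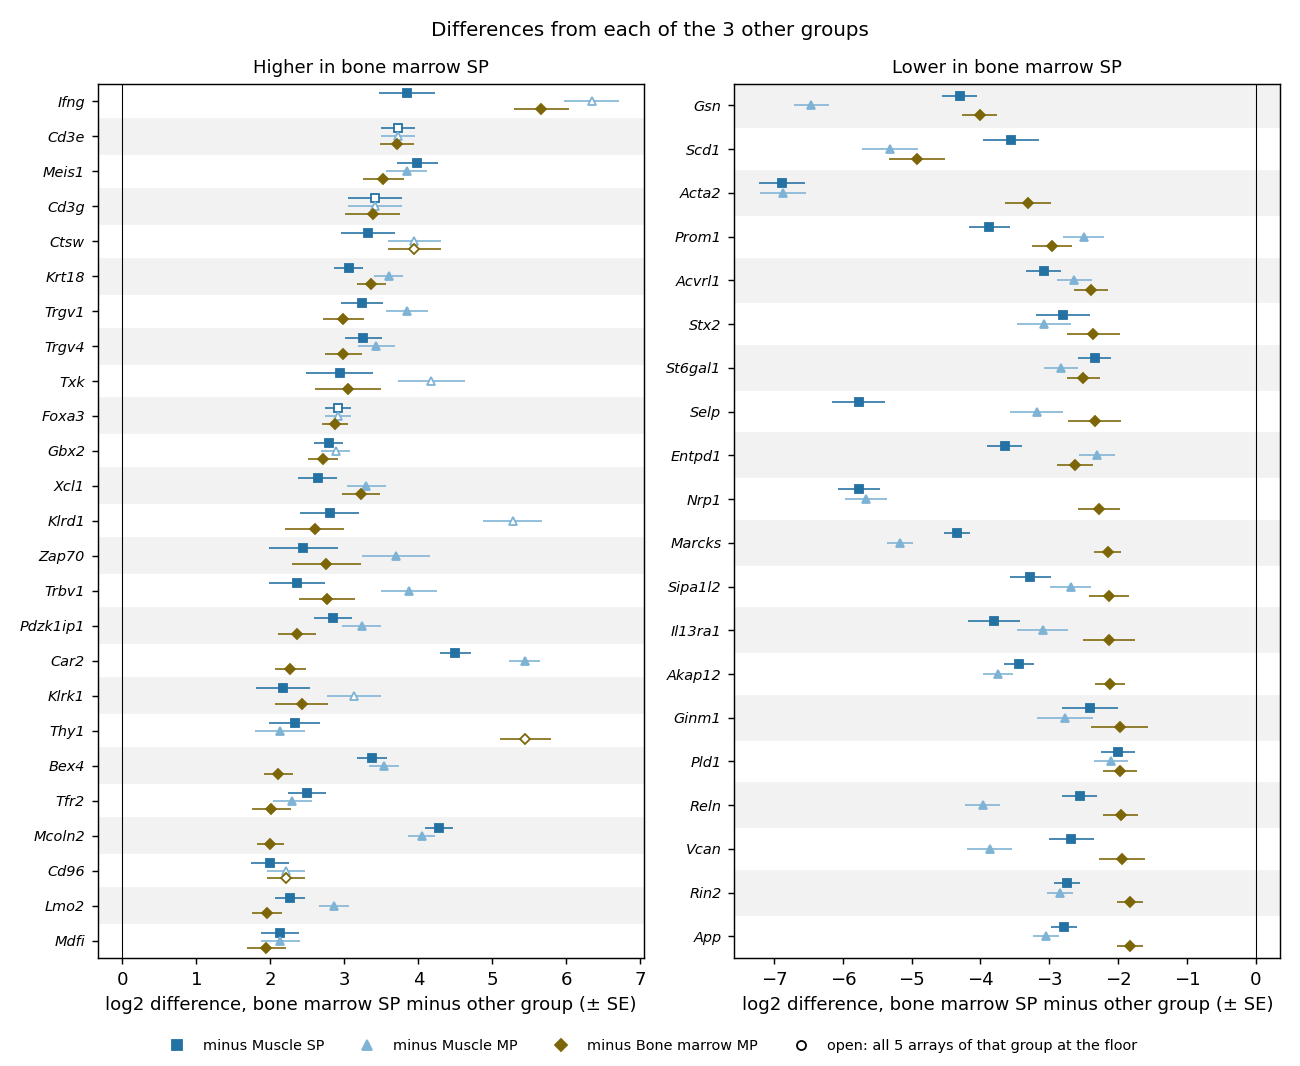
Log2 difference of Bone marrow SP minus each other group, with its standard error from limma (x axis), for the same 25 genes above and 20 genes below all 15 other arrays, where open symbols mark groups with all 5 arrays at the floor, whose differences are lower bounds, as are those of Il13ra1, which was at the floor on all Bone marrow SP arrays. Where only some arrays were at the floor, as for Gsn, Scd1 and Acta2 on Bone marrow SP arrays, the differences are lower bounds too. Meis1 and Cd3e stood at similar distances from the 3 groups, whereas Car2 and Thy1 differed by group, with Thy1 at 5.45 from Bone marrow MP.

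Among 30 surface markers and receptors of blood stem cells, 4 lay above all others (13.3%) and 2 below (6.7%). Of all genes, 2.85% lay above and 1.30% below. In limma 14 of the 30 were higher in each comparison, and 11, 11 and 7 were lower than in Muscle SP, Muscle MP and Bone marrow MP. Their summed signal was 130000 to 168000 on Bone marrow SP arrays. It was 207000 to 261000 on Muscle SP, 168000 to 189000 on Muscle MP and 111000 to 124000 on Bone marrow MP arrays. Kit gave 2780, 2540, 2440, 3110 and 2730 on Bone marrow SP 1 to 5. It gave 288 to 994 on Muscle SP, 580 to 1230 on Muscle MP and 902 to 1670 on Bone marrow MP arrays, so that Bone marrow MP 1 and 5 came nearest. Kit was 4.78-fold higher than in Muscle SP and 2.11-fold higher than in Bone marrow MP (limma adjusted p = 0.00680). With the GAPDH ratio as a covariate, the log2 difference from Bone marrow MP was 0.59 and no longer passed (limma adjusted p = 0.159). Flt3, a receptor of multipotent and lymphoid progenitors, was 2.14-fold higher than in Bone marrow MP in its probe set with an s suffix and overlapped between groups in the other. Cd27, a receptor of the tumour necrosis factor family on stem cells and lymphocytes, was 3.36-fold higher than in Bone marrow MP, again in 1 of its 2 probe sets.

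Thy1, a surface glycoprotein of T cells that blood stem cells of some mouse strains carry at low level, gave 5910, 4640, 11200, 3490 and 1850 on Bone marrow SP 1 to 5. It gave 525 to 1550 on Muscle SP and 789 to 1440 on Muscle MP arrays and was at the floor on every Bone marrow MP array. As for the CD3 genes, Bone marrow SP 3 was the highest array. Thy1 was at least 43.6-fold higher than in Bone marrow MP.

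The dye pumps and several further stem cell markers took middle positions and were therefore not among the selected genes. Abcg2 gave 2160, 4420, 3360, 6710 and 5420 on Bone marrow SP 1 to 5. It gave 15900 to 32700 on Muscle SP, 10700 to 13700 on Muscle MP and 818 to 972 on Bone marrow MP arrays. Bone marrow SP was thus separated from all 3 groups, 4.48-fold above Bone marrow MP and below Muscle SP and Muscle MP by 5.17-fold and 2.87-fold. Procr, the endothelial protein C receptor found on stem cells, was 10.3-fold higher than in Bone marrow MP and 2.36-fold and 1.58-fold lower than in Muscle SP and Muscle MP. The difference of Procr from Muscle MP no longer passed without Bone marrow SP 1, Muscle MP 2 or Muscle MP 5 (limma adjusted p of 0.0804, 0.0757 and 0.0592). Bone marrow SP also lay between Bone marrow MP and both muscle groups for Cd34 and for Cdkn1c, an inhibitor of the cell cycle associated with quiescence, which was higher than in Bone marrow MP by 3.91 ± 0.36 on the log2 scale. A second probe set of Cd34 did not pass against Bone marrow MP (0.39 ± 0.32, limma adjusted p = 0.411). The mean of Abcb1b, another dye pump, lay between the same groups, although with a floor at the 40th percentile its difference from Bone marrow MP did not pass (limma adjusted p = 0.170). Abcb1a was at the floor on all Bone marrow MP arrays and did not pass against them (0.85 ± 0.39, limma adjusted p = 0.108). This call turned on the floor, since the difference was 2.49 with a floor at the 10th percentile (limma adjusted p = 0.000167) and 1.39 with a pseudocount (limma adjusted p = 0.00150), and it also passed without further normalization, at 1.11 (limma adjusted p = 0.0220). None of 24 tested ABC transporters lay above or below all others, which for so short a list is near the 2.85% and 1.30% of all genes. Ly6a, Slamf1, Hlf and Itga2b were not analysed here.

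Erythroid genes made up a smaller group, with 4 of 22 tested above all others (18.2%, against 2.85% of all genes) and none below. Car2, the carbonic anhydrase of red cells, gave 17500, 19400, 13100, 15600 and 12200 on Bone marrow SP 1 to 5. It gave 515 to 881 on Muscle SP, 293 to 396 on Muscle MP and 2260 to 4750 on Bone marrow MP arrays, and the log2 differences of 4.50 ± 0.21, 5.44 ± 0.21 and 2.27 ± 0.21 were all past the threshold. Bpgm, the mutase that makes bisphosphoglycerate, a regulator of oxygen release from red cells, was 2.22-fold higher than in Bone marrow MP, but under median scaling the log2 difference was 0.48 and did not pass (limma adjusted p = 0.141). Hba-a1, alpha globin, gave 44000, 36800, 43200, 41000 and 20900 on Bone marrow SP 1 to 5 and 9480 to 16000 on Bone marrow MP arrays, yet its difference from Bone marrow MP did not pass (1.43 ± 0.61, limma adjusted p = 0.0844). It passed with the replicate number as a block (limma adjusted p = 0.0214), with only the 2 groups compared (0.00176) and without Muscle SP 4 (0.0460). Tal1 is on this list as well. Tfr2, a transferrin receptor outside the list, was 4.04-fold higher than in Bone marrow MP. Alas2, the first enzyme of heme synthesis in red cells, ran from 1410 to 8460 on Bone marrow SP arrays and overlapped with Bone marrow MP at 1530 to 3170.

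Several genes of large difference are best known from other tissues. Krt18, an intermediate filament protein of simple epithelia, gave 1180, 1980, 1140, 1050 and 1610 on Bone marrow SP 1 to 5 and at most 202 on any other array. Its partner Krt8, the adjacent gene on chromosome 15, was also above all others. Foxa3, a forkhead factor of liver and gut, gave 596 to 1320 on Bone marrow SP arrays, 120 on Bone marrow MP 2 and the floor on the remaining arrays. Gbx2, a homeobox factor of the developing brain, gave 567 to 1380 and at most 146 elsewhere. Each of these probe sets had a small spread among Bone marrow SP arrays relative to its distance from the others. Mcoln2, a channel of endosomes and lysosomes, was 19.4-fold higher than in Muscle SP and 4.00-fold higher than in Bone marrow MP. Bex4 was 10.3-fold and 4.31-fold higher, and Mdfi, an inhibitor of myogenic factors, 4.39-fold and 3.85-fold, the last in 1 of its 2 probe sets.

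Proliferation genes set Bone marrow SP apart from muscle cells and, for part of the list, from Bone marrow MP. Of 37 mitosis genes, 8 lay above all others (21.6%, against 2.85% of all genes), namely Kif22, Ttk, Stmn1, Tacc3, Mki67, Cdc20, Smc4 and Cdk1. In limma 35 of 37 were higher than in Muscle SP and 35 than in Muscle MP, with none lower, but 11 were higher and 1 lower than in Bone marrow MP, where the median log2 difference was 0.36. Of all genes, 22.4%, 25.4% and 16.5% were higher in the 3 comparisons and 18.9%, 22.1% and 14.9% lower. Stmn1, a regulator of microtubules, gave 23500, 28400, 20600, 25200 and 19300 on Bone marrow SP 1 to 5. It gave 3510 to 7260 on Muscle SP, 3920 to 5920 on Muscle MP and 8260 to 12200 on Bone marrow MP arrays, and the difference from Bone marrow MP was 2.25-fold. Under median scaling it was 0.54 on the log2 scale and did not pass (limma adjusted p = 0.0519). The mitotic kinase Ttk was 2.34-fold higher than in Bone marrow MP. Mki67, the Ki-67 protein of cycling cells, did not overlap with Bone marrow MP but did not pass there either (0.87 ± 0.42, limma adjusted p = 0.128), although it did with only the 2 groups compared (limma adjusted p = 0.0122) and with a floor at the 40th percentile (0.0407).

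Of 44 DNA replication genes, 2 lay above all others, Pcna, the sliding clamp of DNA polymerase, and Mcm3, a helicase subunit, a share of 4.5% near the background of 2.85%. Pcna gave 21600 to 24100 on Bone marrow SP arrays, 10800 to 13400 on Muscle SP, 8350 to 12000 on Muscle MP and 13800 to 17200 on Bone marrow MP arrays. Under median scaling its difference from Bone marrow MP was -0.10 in place of 0.52, so that its direction there depends on the scaling. Without further normalization that difference was 0.37 and did not pass (limma adjusted p = 0.0633). Neither probe set of Mcm3 passed against Bone marrow MP under median scaling (limma adjusted p of 1 and 0.728). The number of mitosis genes above all others was 3 under median scaling and 13 without further normalization.

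Ribosomal protein genes came next to lymphocyte genes in number. Of 32 tested, 11 lay above all others (34.4%, against 2.85% of all genes) and none below. The 11 included Rpsa, Rpl13a, Rps7, Rpl37a and Rps10. In limma 15, 13 and 16 of the 32 were higher than in Muscle SP, Muscle MP and Bone marrow MP, and none was lower. Of all genes, 22.4%, 25.4% and 16.5% were higher in these comparisons. Rpsa gave 16600, 19200, 14700, 15700 and 11600 on Bone marrow SP 1 to 5. It gave 3060 to 7900 on Muscle SP, 2890 to 5920 on Muscle MP and 3270 to 6140 on Bone marrow MP arrays, and was 3.47-fold, 3.25-fold and 3.36-fold higher than in these groups. Rps10 differed by less, at 1.70-fold, 2.16-fold and 2.16-fold. The list medians against Muscle SP, Muscle MP and Bone marrow MP were 0.40, 0.40 and 0.46 on the log2 scale. They were 0.66, 1.01 and 0.87 without further normalization and 0.45, 0.72 and 0.39 under median scaling. The count fell to 2 under median scaling and to 7 without further normalization, and ribosomal protein genes have many near-identical pseudogene copies that such probes can also bind.

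**Figure D3:**
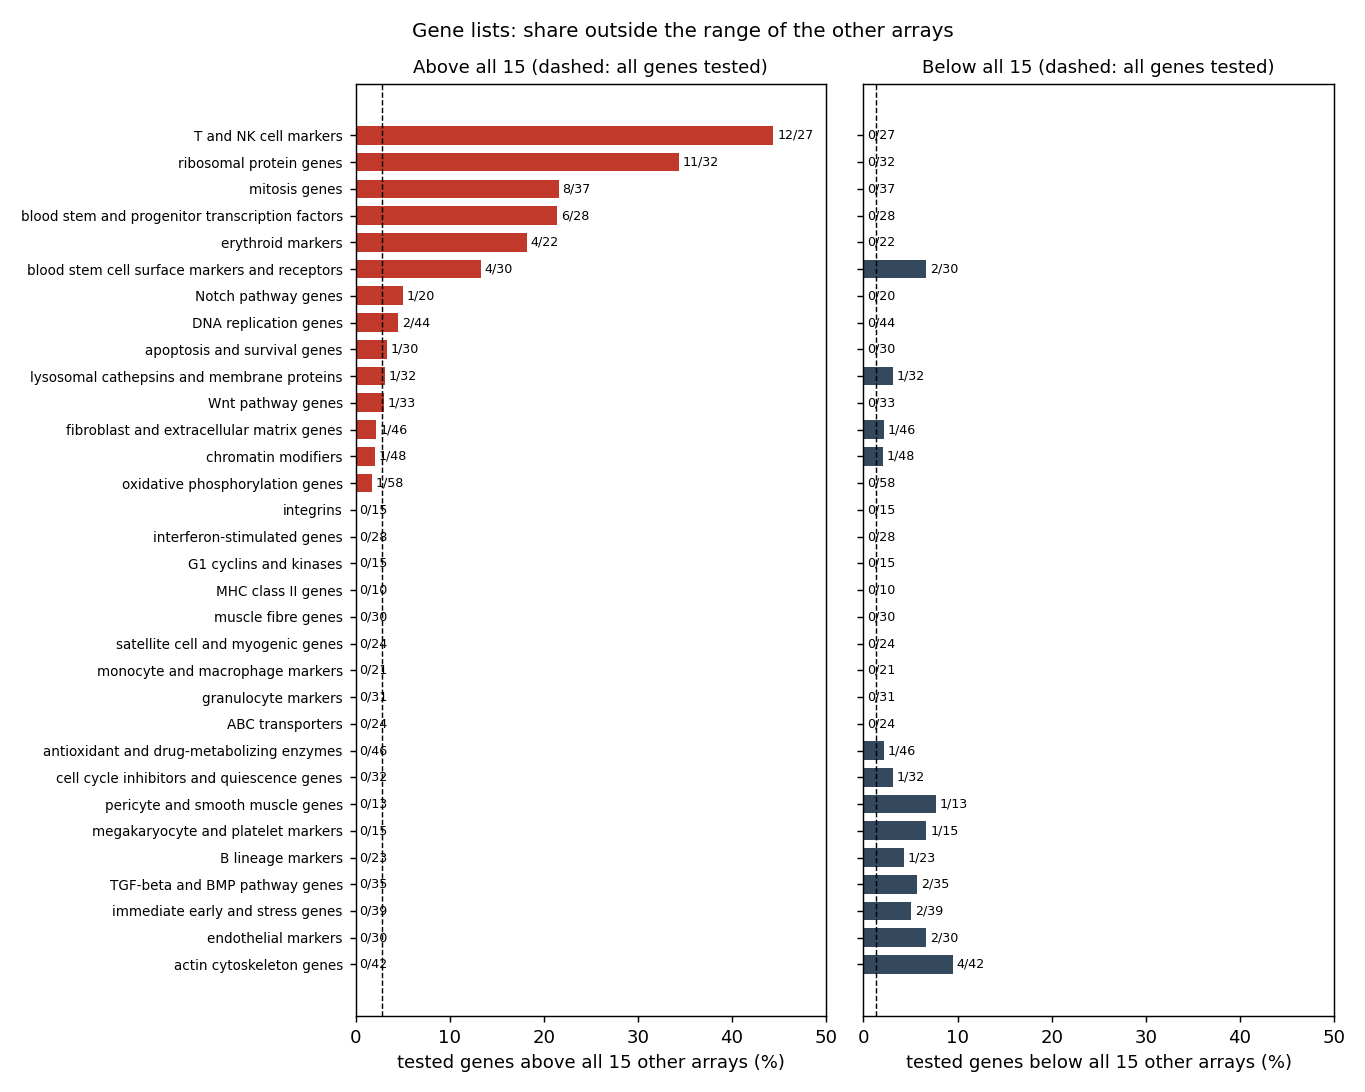
Share of the tested genes of each list (x axis, percent) that lay above (left) and below (right) all 15 other arrays, with the count of genes over the number tested beside each bar and a dashed line at the share of all 7295 genes tested, 2.85% and 1.30%. T and NK cell markers led the left panel with 12 of 27 genes, and actin cytoskeleton genes the right panel with 4 of 42.

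The genes below all others were led by Gsn, gelsolin, a protein that severs actin filaments. It was at the floor on Bone marrow SP arrays except for 125 on Bone marrow SP 3. It gave 1460, 2690, 1630, 2800 and 2480 on Muscle SP 1 to 5, 8220, 10700, 8680, 15500 and 6730 on Muscle MP 1 to 5, and 1860, 2290, 1840, 2250 and 933 on Bone marrow MP 1 to 5. The gap to the nearest array, Bone marrow MP 5, was 2.91 on the log2 scale, the widest among named genes below all others. Gsn was at least 19.7-fold, 88.1-fold and 16.2-fold lower in Bone marrow SP than in Muscle SP, Muscle MP and Bone marrow MP. These folds are bounds set by the floor, and across settings the log2 difference from Bone marrow MP ran from -5.1 to -2.78. Vcl, vinculin, which ties actin to adhesion sites, Actn1, an actin crosslinker, and Dstn, an actin depolymerizing protein, were below all others too. With Gsn they made 4 of 42 actin cytoskeleton genes below all others (9.5%, against 1.30% of all genes), and none was above. In limma 9 of the 42 were higher and 12 lower than in Muscle SP, 13 higher and 12 lower than in Muscle MP, and 2 higher and 16 lower than in Bone marrow MP. Over all genes, 22.4%, 25.4% and 16.5% were higher in these comparisons and 18.9%, 22.1% and 14.9% lower. The list was thus set apart mainly by its lower genes against Bone marrow MP. Dstn against Muscle MP did not pass without further normalization (-0.13), under median scaling (-0.42) or with the GAPDH ratio as a covariate (-0.38). Vcl was lower by a similar factor in each comparison, 2.40-fold, 2.43-fold and 2.47-fold.

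Acta2, smooth muscle actin, gave 129, 395, 194, 105 and 105 on Bone marrow SP 1 to 5. It gave 12500 to 26100 on Muscle SP, 10900 to 27000 on Muscle MP and 1040 to 2350 on Bone marrow MP arrays. With some Bone marrow SP arrays at the floor, it was at least 9.92-fold lower than in Bone marrow MP. The differences from Muscle SP and Muscle MP were at least 118-fold and 117-fold. Scd1, the desaturase that makes monounsaturated fatty acids, gave 302, 105, 155, 105 and 105 on Bone marrow SP 1 to 5. Bone marrow MP arrays gave 2910 to 7020, a difference of at least 30.3-fold, as some Bone marrow SP arrays were at the floor. The nearest array for Scd1 was Muscle SP 3, at 426, and 1 of its 3 probe sets overlapped between groups.

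Some membrane proteins were also below all others. Prom1, the CD133 protein used as a stem cell marker in human blood, gave 221, 260, 267, 358 and 105 on Bone marrow SP 1 to 5. It gave 2010 to 4960 on Muscle SP, 963 to 2190 on Muscle MP and 1560 to 1970 on Bone marrow MP arrays, and was 7.79-fold lower than in Bone marrow MP. Both of its probe sets lay below all others. Acvrl1, a receptor of the bone morphogenetic protein family known from endothelium, was 5.25-fold lower than in Bone marrow MP in 1 probe set and 4.54-fold in another, whereas the third probe set overlapped. Nrp1, a co-receptor for semaphorins and vascular endothelial growth factor, gave 138 to 466 on Bone marrow SP arrays, against 11600 or more on muscle arrays and 801 to 2350 on Bone marrow MP arrays, and its neighbour Pard3 on chromosome 8 was below all others as well.

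Selp, the adhesion molecule P-selectin of platelets and endothelium, gave 105, 183, 437, 105 and 105 on Bone marrow SP 1 to 5 and 447 to 1200 on Bone marrow MP arrays, so that the groups were separated by a log2 gap of 0.03. Entpd1, the ectonucleotidase CD39, was 6.17-fold lower than in Bone marrow MP, and St6gal1, a sialyltransferase, 5.68-fold. Il13ra1, a subunit of the interleukin-13 receptor, was at the floor on all 5 Bone marrow SP arrays and gave 327 to 598 on Bone marrow MP arrays, so that it was at least 4.38-fold lower in Bone marrow SP. Marcks, a substrate of protein kinase C, gave 352 to 564 on Bone marrow SP arrays, 6370 to 20100 on muscle arrays and 1720 to 2300 on Bone marrow MP arrays. It separated the groups by 1.61 on the log2 scale, with little spread among Bone marrow SP arrays.

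Some genes below all others still gave a strong signal in Bone marrow SP. App, the amyloid precursor protein, gave 12300, 8970, 8790, 8120 and 9940 on Bone marrow SP 1 to 5. It gave 48500 to 79400 on Muscle SP, 69400 to 88400 on Muscle MP and 23800 to 48100 on Bone marrow MP arrays, and was 3.55-fold lower than in Bone marrow MP. Rin2, an exchange factor for the endosomal GTPase Rab5, was lower by a like factor of 3.55, at 980 to 1290 on Bone marrow SP arrays. Zfp36, an early response gene that destabilises messenger RNA, and Btg2, an antiproliferative gene, were the 2 of 39 immediate early and stress genes below all others (5.1%, against 1.30% of all genes). Ebf1, a factor of B cell commitment, was at the floor on Bone marrow SP arrays except for 143 on Bone marrow SP 5. It was the only 1 of 23 B lineage genes outside the range of the other groups (4.3%). Without further normalization, and with a floor at the 40th percentile, it overlapped with them.

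The granulocyte and B lineage lists held no gene above all others, where 2.85% of all genes lay. Against Bone marrow MP, 20 of 31 granulocyte markers and 22 of 23 B lineage markers were lower in Bone marrow SP, and none was higher. The same lists stood above muscle, with 25 and 12 genes higher than in Muscle SP and 1 lower in each. Over all genes, 16.5% were higher and 14.9% lower than in Bone marrow MP, and 22.4% higher and 18.9% lower than in Muscle SP. The summed granulocyte signal ran from 146000 on Bone marrow SP 5 to 424000 on Bone marrow SP 1, against 28500 to 91000 on Muscle SP, 23800 to 40100 on Muscle MP and 734000 to 842000 on Bone marrow MP arrays. Bone marrow SP arrays therefore differed among themselves in granulocyte signal, and Bone marrow SP 5, the array of lowest granulocyte sum, had the highest sum of stem cell factors, 215000, against 137800 to 177400 on the other 4 arrays of the group. This is 1 array, and a relation between the 2 sums was not tested. The stem cell factor sum overlapped with Muscle SP, at 133000 to 169000, and with Muscle MP, at 137000 to 146000. On Bone marrow MP arrays it was 92000 to 108000. Endothelial genes were lower than in Muscle SP for 26 of 30, with none higher, whereas 11 were higher and 4 lower than in Bone marrow MP. Monocyte and macrophage markers, integrins, G1 cyclins and kinases, interferon-stimulated genes, MHC class II genes, muscle fibre genes and satellite cell genes held no gene outside the range of the other arrays when each gene was read from 1 probe set. With 2.85% of all genes above and 1.30% below, lists of 10 to 30 genes hold few or none at that share. Their lack of such genes is therefore no result about them. When all probe sets of a gene were averaged, 2 satellite cell genes and 1 monocyte and macrophage marker lay below all others.

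The signalling, chromatin and metabolic lists held no more than 2 genes each outside the range of the other arrays. Their shares above all others were at most 5.0%, against 2.85% of all genes, and those below at most 5.7%, against 1.30%. Counts this small are near the background, and the genes are named without a result for their lists. Mfng, a glycosyltransferase that modifies Notch receptors, was the 1 of 20 Notch pathway genes above all others, at 2800 to 5250 on Bone marrow SP arrays, against 1200 to 2000 on Muscle SP, 1030 to 1500 on Muscle MP and 712 to 1110 on Bone marrow MP arrays. Wnt11, a secreted Wnt ligand, was the 1 of 33 Wnt pathway genes, and was at least 4.55-fold higher than in Bone marrow MP. The chromatin modifiers had 1 of 48 above, Smarcc1, a subunit of the SWI/SNF remodelling complex, and 1 below, Ezh1, a histone methyltransferase of the Polycomb group. Bcl2l11, the death-promoting protein Bim, was the 1 of 30 apoptosis and survival genes above all others, 1.76-fold over Bone marrow MP, and 2 of its 3 probe sets overlapped. Under median scaling that difference did not pass (limma adjusted p = 0.309). Of 35 genes of the TGF-beta and BMP pathways, 2 were below, Acvrl1 and Tgfb1i1. Grn, the growth factor precursor progranulin, lay below among lysosomal genes, where Ctsw lay above, and Aldh3a2, a fatty aldehyde dehydrogenase, lay below among 46 antioxidant and drug-metabolizing enzymes. Atp5g2, a subunit of the ATP synthase, was the 1 of 58 oxidative phosphorylation genes above all others, by a log2 gap of 0.02. Among the remaining lists, fibroblast and extracellular matrix genes held Thy1 above and Gsn below, pericyte genes Acta2, megakaryocyte genes Selp, endothelial genes Selp and Lyve1, and cell cycle inhibitors Btg2 below all others. Shares below ran from 2.2% to 7.7% in these lists and rest on 1 or 2 genes each.

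**Figure D4:**
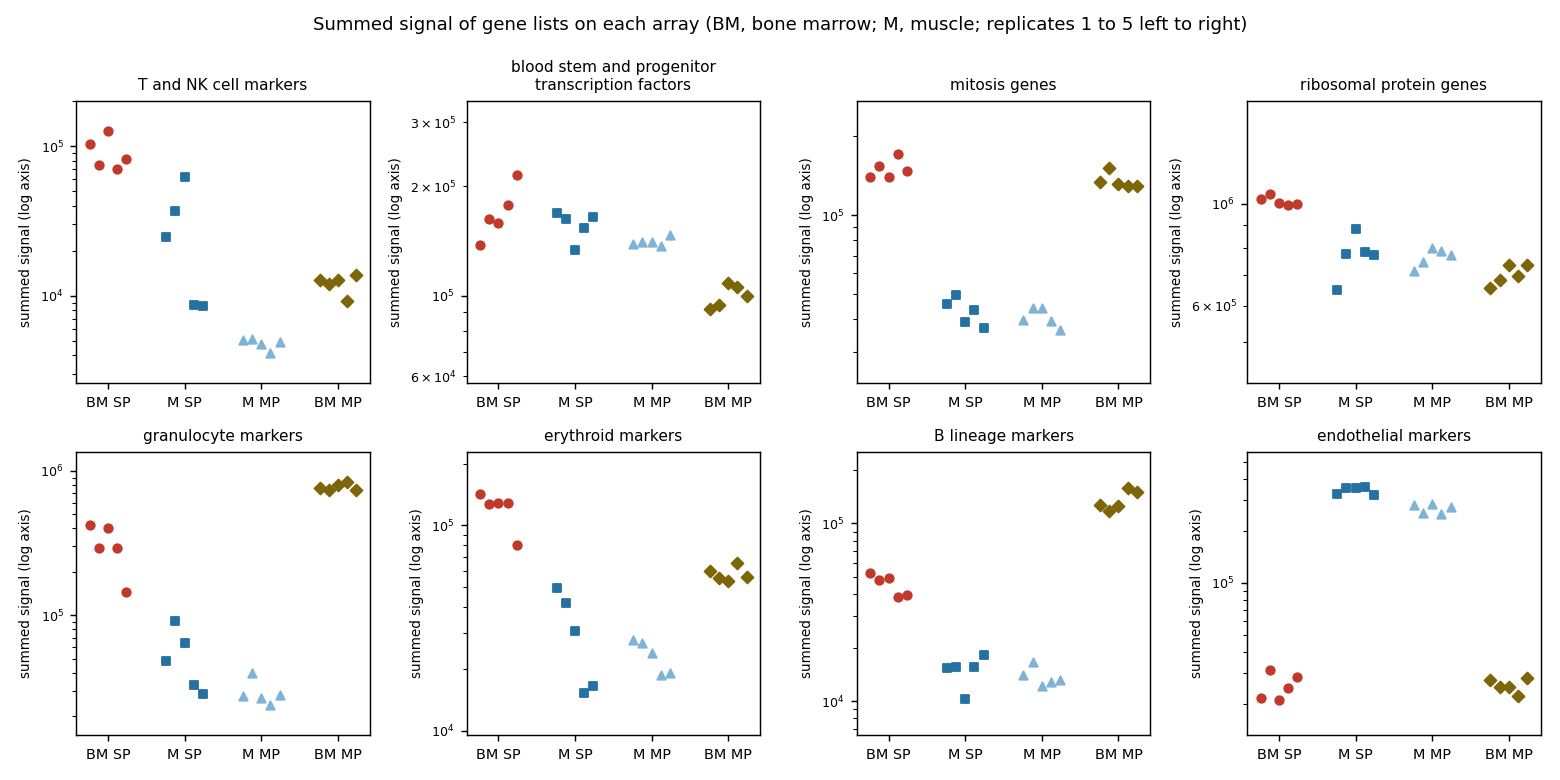
Summed signal (y axis, log scale) over the tested genes of 8 lists on each of the 20 arrays, with the 4 groups from left to right and the 5 replicates of each side by side. T and NK cell markers summed to 70000 or more on Bone marrow SP arrays and to at most 62400 elsewhere, on Muscle SP 3, whereas granulocyte and B lineage sums were highest on Bone marrow MP arrays.

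The margin by which genes were selected was often narrow. Above all others the median gap between the nearest arrays was 0.26 on the log2 scale, and 20 of the 258 probe sets had a gap of 1 or more. Below all others the median was 0.29, and 15 of 124 had such a gap. Cd3e had the widest gap of a named gene above, 2.84, followed by Krt18 at 2.38 and Foxa3 at 2.32. Among the genes just inside the threshold, Dok2 gave at least 640 on Bone marrow SP arrays and at most 638 on the others. Just outside, Eif4b gave at least 2130, against 2140 on Bone marrow MP 5. Below all others, Marveld1 was just inside, with 1550 on both Bone marrow SP 1 and Bone marrow MP 5 when rounded, and Clcn4 just outside, at up to 2260 on Bone marrow SP arrays and 2250 on Muscle SP 1. Under median scaling, Trbv1, Flt3, Hba-a1, Bpgm, Stmn1, Mki67, Pcna, Mcm3, Rpl13a, Rps7, Rpl37a, Smarcc1, Atp5g2, Bcl2l11 and Dok2 were, besides Lmo2 and Tal1, no longer above all others. Without further normalization, Scd1, Selp, Lyve1, Dstn, Tgfb1i1, Ezh1, Aldh3a2 and Marveld1 were, besides Ebf1, no longer below all others. In that setting Pcna, Mcm3, Rpl37a and Bcl2l11 were no longer above all others either. Dstn was also no longer below all others under median scaling.

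Sizes were larger than the gaps. Of the probe sets above all others, 131 differed at least 2-fold from each of the 3 groups and 28 at least 4-fold, and below all others these numbers were 86 and 16. The nearest other array belonged to Bone marrow MP for 121 of the 258 probe sets, to Muscle SP for 111 and to Muscle MP for 26. Muscle SP 3 was nearest for 54 of them and Bone marrow SP 1 was the limiting array of its own group for 74. Where a gene above all others had several tested probe sets, which applied to 55 genes, all of them were above for 7 genes and none was below for any. For genes below all others these numbers were 40, 5 and 0. Unselected probe sets of such genes overlapped between groups, so that a gene rests here on the probe set named.

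Selected genes that lie next to each other on a chromosome were few. Besides the CD3 genes, Klrd1 with Klrk1, Tal1 with Pdzk1ip1 and Krt8 with Krt18, the adjacent pairs above all others were Klra5 with Klra6, which encode NK cell receptors of the Ly49 family, Pafah2 with Stmn1, Xpo7 with Dok2 and Psph with Cct6a. On the X chromosome Bex4 and Bex1 were separated by 2 genes. Below all others, Ampd3 and Lyve1, a hyaluronan receptor of lymphatic vessels and macrophages, were separated by 1 gene on chromosome 7.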

How the data were processed

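Total RNA of 20 sorted samples was measured on Affymetrix arrays of 12488 probe sets. The authors deposited linear signal intensity, already scaled to a near-equal trimmed mean on every array. Which software, probe summary or background correction they used is not given in the sources used here. Leaving out 66 controls, 12422 probe sets were quantile normalized, because array medians had differed by 0.943 on the log2 scale. Values were floored at the 25th percentile (105 signal, log2 6.71), log2 values taken, and probe sets above the floor on at least 5 of 20 arrays kept. These were 10310, of which 9095 had a single symbol and read 7295 genes. The floor shrinks folds of dim genes, and quantile normalization removes any overall difference in RNA content. Precision is limited by the 5 arrays of a group, since arrays give no counts.

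A single limma fit (version 3.58.1, R 4.3.3) covered all 4 groups (two-sided, Benjamini-Hochberg over all probe sets, 0.05), and the code was tested on simulated data. Gene symbols come from the platform annotation, checked by gene identifier against RefSeq GRCm38.p6, where 10817 matched and 0 changed. The members and gene lists were chosen with earlier results of these data known. Lists used 1 probe set per gene, that of highest mean, and no set test was made. Named genes were the 25 above and the 20 below all 15 other arrays with the largest value of the smallest absolute difference among genes past the threshold in each comparison, up to 5 members per list and side in the same order, and a set of stem, lymphoid, lineage and defining cell type genes whatever their values. Values are not printed for every gene of that set. Other named genes were the 3 just inside and outside each threshold and the 5 of widest gap. Cd28, Eomes, Mllt3, Cdc20, Smc4 and Cdk1 complete small counts, and neighbouring genes were named from the annotation, all after their values were seen. Suffixes such as s, f, g and r mark probe sets open to cross-hybridisation. Alternatives were other scalings, floors and filters, a pseudocount, other variance settings, array weights, fits of 2 groups, the replicate block, the GAPDH ratio as covariate, and arrays left out. Deviations of samples of like number correlated at 0.0476 to 0.296 against Muscle SP, -0.0753 to 0.192 against Muscle MP and -0.141 to 0.211 against Bone marrow MP. Not every pair exceeded 0.1, so samples were not treated as pairs. Plots used matplotlib 3.10.9 (Python 3.11.15).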

Additional observations from a re-analysis of the deposited data

Results flagged for a closer look

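Over 111 probe sets of named genes, 37 of 422 groups of 5 arrays held an array set apart from the other 4. The gap to its nearest array, as a share of the group's whole range, exceeded Dixon's critical value of 0.71. For normally distributed values chance gives this in about 1 in 20 groups, but that rate does not hold where arrays tie at the floor. No explanation was tested, and the shares below follow each gene and array. A share of 1 means that the other 4 arrays were all at the floor, however small the departure. Cd3e on Bone marrow MP 2, for example, was at log2 6.78, next to 6.71. On Bone marrow SP arrays the outlying values were Gsn on Bone marrow SP 3 at log2 6.96, next to 6.71 on the nearest array (share 1), Pld1 on Bone marrow SP 5 at log2 7.05, next to 6.73 on the nearest array (share 0.951), Ebf1 on Bone marrow SP 5 at log2 7.16, next to 6.71 on the nearest array (share 1), Hba-a1 on Bone marrow SP 5 at log2 14.35, next to 15.17 on the nearest array (share 0.762), Ly6d on Bone marrow SP 3 at log2 7.62, next to 6.74 on the nearest array (share 0.963). Of these genes, Hba-a1 alone was low on its outlying array, and the others were at or next to the floor on the other arrays.

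On Muscle SP arrays, 5 genes stood high on 1 array. They were Meis1 on Muscle SP 5 (1), Gbx2 on Muscle SP 3 (1), Cd96 on Muscle SP 3 (1), Wnt11 on Muscle SP 3 (0.902), Mpo on Muscle SP 2 (0.746). On Muscle SP arrays, 2 genes stood low on 1 array. They were Scd1 on Muscle SP 3 (0.737), Dok2 on Muscle SP 5 (0.72). On Muscle MP arrays, 4 genes stood high on 1 array. They were Krt18 on Muscle MP 3 (0.837), Trgv4 on Muscle MP 2 (1), Xcl1 on Muscle MP 1 (1), Gzma on Muscle MP 1 (1). On Muscle MP arrays, 4 genes stood low on 1 array. They were Zap70 on Muscle MP 5 (0.724), Pdzk1ip1 on Muscle MP 4 (0.8), Pld1 on Muscle MP 2 (0.766), Lyve1 on Muscle MP 5 (0.847). On Bone marrow MP arrays, 8 genes stood high on 1 array. They were Cd3e on Bone marrow MP 2 (1), Cd3g on Bone marrow MP 5 (1), Foxa3 on Bone marrow MP 2 (1), Xcl1 on Bone marrow MP 3 (0.904), Entpd1 on Bone marrow MP 2 (0.748), Marcks on Bone marrow MP 2 (0.756), Cd48 on Bone marrow MP 3 (0.774), Elane on Bone marrow MP 2 (0.771). On Bone marrow MP arrays, 9 genes stood low on 1 array. They were Gsn on Bone marrow MP 5 (0.759), Prom1 on Bone marrow MP 5 (0.745), Ebf1 on Bone marrow MP 2 (0.723), Mcm3 on Bone marrow MP 2 (0.72), Mki67 on Bone marrow MP 2 (0.725), Zfp36 on Bone marrow MP 5 (0.724), Procr on Bone marrow MP 4 (0.809), Ccl5 on Bone marrow MP 4 (0.903), Ptprc on Bone marrow MP 2 (0.752).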

How the results depend on the processing

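Each named gene was recomputed against its group of nearest mean only, and 3588 of 3656 such differences kept their side of the threshold. A change of sign was counted only where the difference passed in the main or the alternative fit. The 3588 thus include sign changes of differences that did not pass, as for Gzma against Muscle SP, at -0.44 to 0.29. Another 52 no longer passed, 15 newly passed, and 1 that had passed reversed, Pcna against Bone marrow MP, at -0.10 under median scaling. Without further normalization 2894 probe sets were higher than in Bone marrow MP and 75 lay below all 15 others, 70 of them in common with the 124. Under median scaling 113 lay above all 15 others, 104 of them in common with the 258. Without the 3 arrays of highest GAPDH ratio (Bone marrow SP 4 and 5 with Muscle SP 1) 490 lay above and 258 below the remaining arrays, which is in part a result of fewer arrays. Of the 258 probe sets above, 77 stayed above in every one of 28 settings, and 67 of the 124 stayed below. Most of these settings leave out arrays, which can only widen the gap, apart from renewed normalization and filtering. Without Bone marrow SP 1, for example, 254 of the 258 and all of the 124 were kept. Such settings therefore say little about how firmly a probe set was selected. When all probe sets of a gene were averaged, 11 T and NK cell markers, 5 stem cell factors and 10 ribosomal protein genes lay above all others. List counts under other scalings, floors, filters and arrays were added after seeing the data. Under median scaling 3 stem cell factors, 2 ribosomal protein genes, 3 mitosis genes and 1 erythroid gene lay above all others, and without further normalization 7 ribosomal protein and 13 mitosis genes. Without the 3 arrays the erythroid count was 8. The cause of these shifts was not tested. With each array left out in turn, 259 to 379 probe sets lay above and 124 to 157 below all others, the highest without Bone marrow SP 1 and Bone marrow SP 5. For the reason given, these counts and the list counts below could hardly fall. Higher and lower calls ranged over 1951 to 2326 and 1632 to 1875 against Muscle SP, 2274 to 2741 and 1908 to 2112 against Muscle MP, and 1344 to 1687 and 1321 to 1621 against Bone marrow MP. The list counts ranged over 12 to 16 for T and NK cell markers, the highest without Muscle SP 3, 6 to 7 for stem cell factors, 4 to 6 for erythroid, 8 to 10 for mitosis, 11 to 13 for ribosomal protein and 4 to 5 for actin cytoskeleton genes. With the replicate number as a block, 2307, 2772 and 1722 probe sets were higher than in Muscle SP, Muscle MP and Bone marrow MP, and 1854, 2118 and 1609 lower. Each sample correlated best with its own number in 3, 2 and 1 of 5 cases in these comparisons. Values at the floor have no order, so that folds of dim genes are bounds.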
